A study of Mus musculus with 84 samples.

Results

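The genes described here are 42 genes that act in G2 and mitosis, named by symbol, and all 42 were found among the 20308 genes of the deposited table. They were measured in 84 single cells of the mouse embryo at E11.5, taken from the AGM (aorta, gonad and mesonephros), where E counts days of embryonic development. The AGM is the part of the trunk around the dorsal aorta in which the first blood stem cells of the body arise from endothelium. Cells had been sorted for the endothelial surface proteins CD31 and CD144 and against CD41 and CD45, and each sample of the series is 1 cell, caught on a chip made for diameters of 10 to 17 µm. The labels name no embryo, pool, strain or sex for a cell, so the 84 cells count as 1 sample, no test between cells was run, and the values describe these cells only. Values are TPM, the abundance of a gene's transcripts after correction for length, on a scale with the same total in every cell, and so can be set side by side between genes. The number of reads behind a cell is unknown, and a 0 may be a transcript missed in capture.

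A cell that leaves S phase with its DNA copied enters G2, in which Cdk1 is loaded with cyclins A and B. When Cdk1 is switched on by removal of inhibitory phosphates, chromosomes condense, a spindle forms and kinetochores attach to it. Attachment is watched by the spindle checkpoint, which holds back the anaphase-promoting ubiquitin ligase until all chromosomes are attached. The ligase then destroys securin and cyclin B, the chromosome sets part, and the midzone and contractile ring split the cell. Many genes of this programme are silent in G1 and are transcribed late in the cycle. Their promoters are known for CCAAT boxes, which bind the factor NF-Y, and for a cell cycle homology region near the start of transcription, which is bound by the MuvB core of the DREAM and B-Myb complexes together with FoxM1.

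Promoters are shown because the members varied together over the cells, as described further on. RefSeq promoters of the build GRCm38.p6, running from 250 bases before the annotated start to 50 bases after it, were matched for 35 of the 42 genes, with 37 promoters in all. The cell cycle homology element was searched as TTTGAA and the CCAAT box as CCAAT, each on both strands, and neither overlaps the other. For the 4 members with the highest median correlation to the other members among those that hold TTTGAA, 140 bases before the start and the 10 bases after it are printed 5′ to 3′ on the gene's strand (for Prc1, from 1 of its 2 annotated starts), with both elements, or their reverse complements TTCAAA and ATTGG, in capitals. These are Ube2c (chr2:164769789-164769938, plus strand), Cenpf (chr1:189688077-189688226, minus strand), Prc1 (chr7:80294311-80294460, plus strand) and Kif11 (chr19:37376242-37376391, plus strand).
Ube2c: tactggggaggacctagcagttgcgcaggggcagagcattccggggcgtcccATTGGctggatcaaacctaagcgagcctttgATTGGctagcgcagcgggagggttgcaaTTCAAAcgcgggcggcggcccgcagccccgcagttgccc
Cenpf: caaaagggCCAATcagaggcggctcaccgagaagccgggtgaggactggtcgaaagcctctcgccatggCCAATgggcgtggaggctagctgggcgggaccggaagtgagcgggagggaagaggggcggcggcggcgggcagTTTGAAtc
Prc1: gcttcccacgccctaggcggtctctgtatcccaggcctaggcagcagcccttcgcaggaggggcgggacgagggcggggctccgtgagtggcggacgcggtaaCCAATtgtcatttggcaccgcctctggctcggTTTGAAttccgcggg
Kif11: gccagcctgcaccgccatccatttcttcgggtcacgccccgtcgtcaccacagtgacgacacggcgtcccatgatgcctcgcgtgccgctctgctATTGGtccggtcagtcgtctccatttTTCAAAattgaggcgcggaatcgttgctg
With the first transcribed base counted as 0, the homology element began at -29 in Ube2c, 2 in Cenpf, -5 in Prc1 and -19 in Kif11, and the nearest CCAAT box lay upstream of it, at -57, -71, -37 and -45 in the same order.

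The homology element was held by 29 of the 37 member promoters, or 78.4% (95% interval 61.8% to 90.2%). The share was 12.4% of the 6856 promoters of genes detected in 42 or more of the 84 cells and 17.9% of all 32851 promoters. CCAAT was found in 75.7% of member promoters, against 38.9% of the promoters of genes detected in 42 or more cells and 37.4% of all. Both elements stood in 67.6% of member promoters, against 5.53% and 6.95% of the same 2 sets. In the 80 bases from -30 to 49, a window chosen after positions were seen, TTTGAA lay in 26 of the 37 (70.3%), against 2.84% of promoters of genes detected in 42 or more cells. Among 38 other mitosis genes 23 of 45 promoters held TTTGAA (51.1%), and 16 of 45 (35.6%) held it from -30 to 49. Among 29 S phase genes 3 of 34 promoters held it (8.82%), and 1 of 34 (2.94%) from -30 to 49. The promoters of Ccnb1, Cenpe, Nusap1, Birc5, Pttg1, Bub1, Nuf2 and Mad2l1 had no match to TTTGAA. Of these, Nusap1, Cenpe and Ccnb1 had a higher median correlation to the other members than Prc1 and Kif11, whose promoters are printed. A match describes letters and is no evidence of binding.

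**Figure D1:**
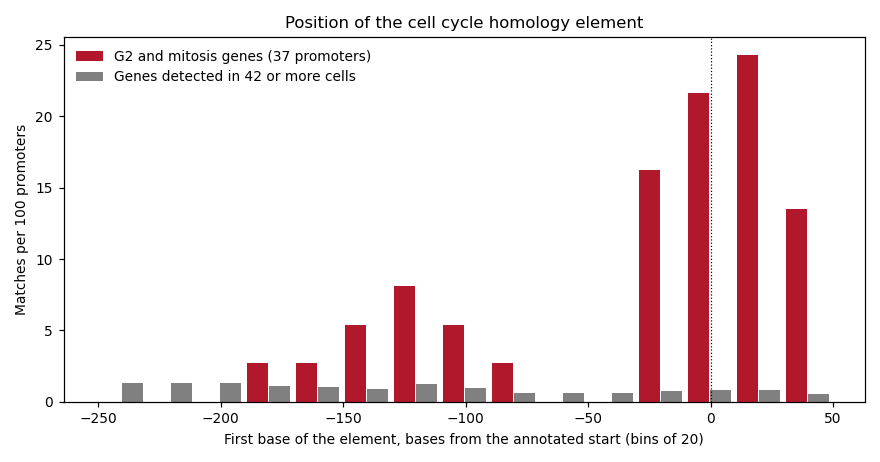
Position of TTTGAA matches on either strand, as the distance of the first base from the annotated start (horizontal axis, bins of 20 bases), in matches per 100 promoters (vertical axis). Red bars are the 37 promoters of G2 and mitosis genes, where the 4 bins from -30 to 49 hold 6, 8, 9 and 5 matches; grey bars are promoters of genes detected in 42 or more cells, which stay below 1.33 per 100 in every bin.

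Transcripts of the sort were in place. Pecam1 (CD31) was detected, at TPM 1 or more, in 80 cells and Cdh5 (CD144) in 82, while Ptprc (CD45) was detected in 0 and Itga2b (CD41) in 7. A median of 15 of 17 pan-endothelial genes reached TPM 10 per cell, but in 4 cells fewer than 3 did, which goes against the sort, and these held 36 to 40 of the 42 members at TPM 10. Of 11 mesenchyme genes at least 3 reached TPM 10 in 33 cells, and 4 or fewer cells passed the same limit for each of 6 other cell types. Cells held between 3334 and 10073 detected genes, with a median of 6978.

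All 42 members were detected in 42 or more of the 84 cells, while 34.6% of all genes of the table were. The member found in the fewest cells was present in 51, and Hmmr, Birc5 and Smc2 were present in all 84. At TPM 10, 36 members passed in 42 or more cells, compared with 21.5% of all genes. Median levels ran from 6.39 TPM for Aurka to 332 TPM for Birc5. Most members were spread widely: the SD of log2(TPM + 1) over cells had a median of 2.69 over the members, against 2.15 over the 7031 genes detected in 42 or more cells. The spread was narrowest for Smc2 (SD 1.34) and Hmmr (1.36) and widest for Ccnb1 (3.64).

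**Figure D2:**
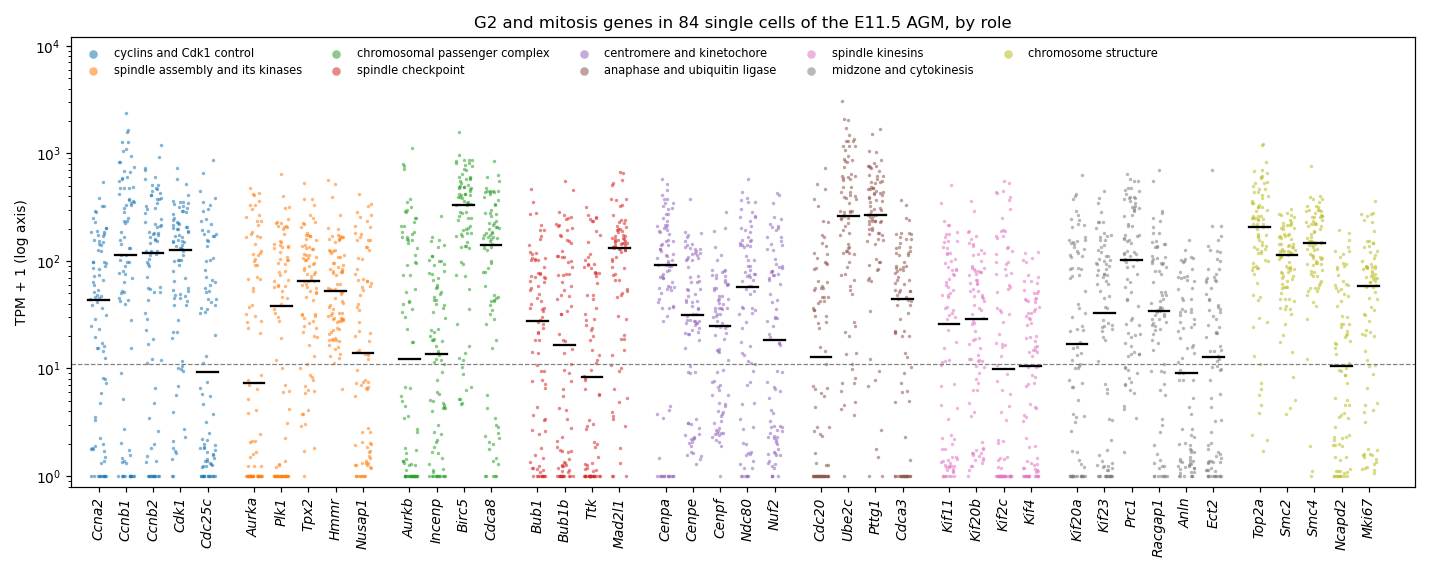
TPM + 1 of each of the 42 genes (vertical log axis) in each of 84 cells (points), grouped and coloured by role, with the median as a black bar and TPM 10 as a dashed line. Several genes, Aurka, Plk1, Cdc20 and Kif2c among them, form a row of cells at 0 and a cloud of higher values. Where detected, the medians of these named genes run from 44.9 TPM (Cdc20) to 94.5 TPM (Plk1). Smc2, Smc4 and Hmmr lie above TPM 10 in nearly all cells.

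Among the cyclins and the control of Cdk1, Cdk1 itself, the kinase that drives entry into mitosis (chromosome 10, 69335146 to 69352912), was found in 78 cells, from 0 over a median of 125 to 735 TPM. Ccnb1, cyclin B1, which carries Cdk1 through mitosis (chromosome 13, 100778739 to 100786486), ranged from 0 in 13 cells over a median of 112 to 2357 TPM, and passed 100 TPM in 44 cells. Ccnb2, its close relative at the Golgi, ranged from 0 to 1201 TPM with a median of 117, and Ccna2, cyclin A2 of S phase and G2, from 0 to 537 TPM with a median of 41.9. Many cells lay far below these medians, with lower quartiles of 3.60 TPM for Ccnb1, 9.05 for Ccnb2 and 2.04 for Ccna2. Cdc25c, a phosphatase that activates Cdk1, was detected in 52 cells at a median of 8.31 TPM and up to 868 TPM. All 5 genes of this role reached TPM 10 together in 27 cells and none of them did in 6.

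Of the spindle assembly genes, the kinases had more zeros than their partners. Aurka, the centrosomal Aurora kinase, was listed at 0 in 27 cells and Plk1, Polo-like kinase 1, in 25, with medians of 6.39 and 36.8 TPM and highest values of 480 and 639 TPM. Tpx2, the activator of Aurora A on spindle microtubules, was detected in 81 cells at a median of 64.4 TPM and up to 533 TPM. Hmmr, which binds hyaluronan and spindle microtubules, ranged from 5.44 over a median of 51.8 to 564 TPM and was at TPM 10 in 83 cells. Nusap1, a microtubule-bundling protein, was found in 60 cells at a median of 12.8 TPM.

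The chromosomal passenger complex, which corrects faulty attachments, held the most abundant member. Birc5 (survivin; chromosome 11, 117849237 to 117855743) ranged from 3.66 over 332 to 1588 TPM and passed 100 TPM in 65 cells. Cdca8 (borealin) followed with 75 cells and a median of 140 TPM. The kinase Aurkb was found in 51 cells, at a median of 11.2 TPM and up to 1127 TPM, and its scaffold Incenp in 64 cells, at a median of 12.6 TPM. Subunits of 1 complex thus lay far apart in median TPM.

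In the spindle checkpoint, Mad2l1, which blocks Cdc20 in the checkpoint complex, was found in 79 cells at a median of 132 TPM. Its partners were lower. Bub1 was detected in 65 cells (median 26.6 TPM), Bub1b, which encodes BubR1, in 56 (15.7 TPM), and the kinase Ttk (Mps1) in 52 (7.34 TPM). All 4 reached TPM 10 together in 19 cells.

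At centromeres and kinetochores, Cenpa, the histone H3 variant that marks centromeres, was found in 71 cells at a median of 89.7 TPM. The Ndc80 complex subunits Ndc80 and Nuf2, which bind microtubules, were each detected in 69 cells, with medians of 55.7 and 17.5 TPM. The kinetochore motor Cenpe was found in 77 cells at a median of 30.6 TPM. Cenpf, a large protein of the outer kinetochore, was detected in 82 cells but at TPM 10 in 53, with a median of 23.7 TPM and 282 TPM at most.

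Genes of anaphase were detected in 54 to 83 cells. Ube2c, the ubiquitin-conjugating enzyme of the anaphase-promoting complex (chromosome 2, 164769929 to 164772902), reached the highest single value of the members, 3042 TPM, with a median of 262 TPM and 83 cells. Pttg1 (securin), which holds separase inactive until anaphase, was found in 80 cells at a median of 267 TPM and up to 1667 TPM. Cdc20, the activator of the complex and the target of the checkpoint, was listed at 0 in 26 cells and had a median of 11.7 TPM, with 734 TPM at most. Cdca3, an F-box protein of mitotic entry, was found in 64 cells at a median of 43.1 TPM.

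The spindle kinesins were low. Kif11 (Eg5), which pushes spindle poles apart, was found in 58 cells at a median of 24.8 TPM, and Kif20b in 68 at 27.6 TPM. Kif2c (MCAK), which takes microtubule ends apart, was listed at 0 in 26 cells, with a median of 8.84 and a maximum of 558 TPM. Kif4, a chromosome-bound motor, was detected in 56 cells and never exceeded 119 TPM, the lowest maximum of the 42. In 12 cells none of these 4 kinesins reached TPM 10.

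Of the midzone and cytokinesis genes, Prc1, which bundles midzone microtubules, was found in 83 cells, from 0.66 over 101 to 636 TPM. The centralspindlin pair Kif23 and Racgap1 was detected in 58 and 69 cells at medians of 31.6 and 33.3 TPM. Kif20a, a midzone motor, was found in 61 cells (median 15.8 TPM), Ect2, which activates RhoA at the cell equator, in 56 (11.7 TPM), and Anln (anillin), a scaffold of the contractile ring, in 55 (8.07 TPM).

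Among chromosome structure genes, Top2a, the topoisomerase that untangles sister chromatids (chromosome 11, 98992947 to 99024199), ranged from 0.7 over 207 to 1208 TPM. The condensin core genes Smc2 and Smc4 had medians of 112 and 145 TPM and reached TPM 10 in 80 and 81 cells. The condensin I subunit Ncapd2 stood apart from them, with 62 cells and a median of 9.47 TPM. Mki67, the coat protein of mitotic chromosomes used as the Ki-67 proliferation marker, was found in 69 cells, with a median of 58.1 TPM and up to 357 TPM. For 18 members the gene span overlaps that of another RefSeq gene, among them Ccna2 with Exosc9, Aurka with Cstf1, Cdc20 with Elovl1 and Prc1 with Rccd1. No strand use is stated for the counting, so reads of such overlaps could not be told apart.

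Per cell, a median of 31 of the 42 members reached TPM 10, with 20 and 36.25 as quartiles, 2 as the lowest and 42 as the highest count. At least 21 members did so in 62 cells, or 73.8% (63.1% to 82.8%). All 42 did in 3 cells, and 40 or more in 13. The distribution had a low tail rather than a gap: 9 cells (10.7%, 5.02% to 19.4%) held 10 or fewer members, of which 2 held exactly 10, and the next cells held 11 and 13. These intervals are exact binomial ones and cover counting error over cells only. Summed over the members, TPM ranged from 142 over a median of 3785 to 17989 per cell.

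**Figure D3:**
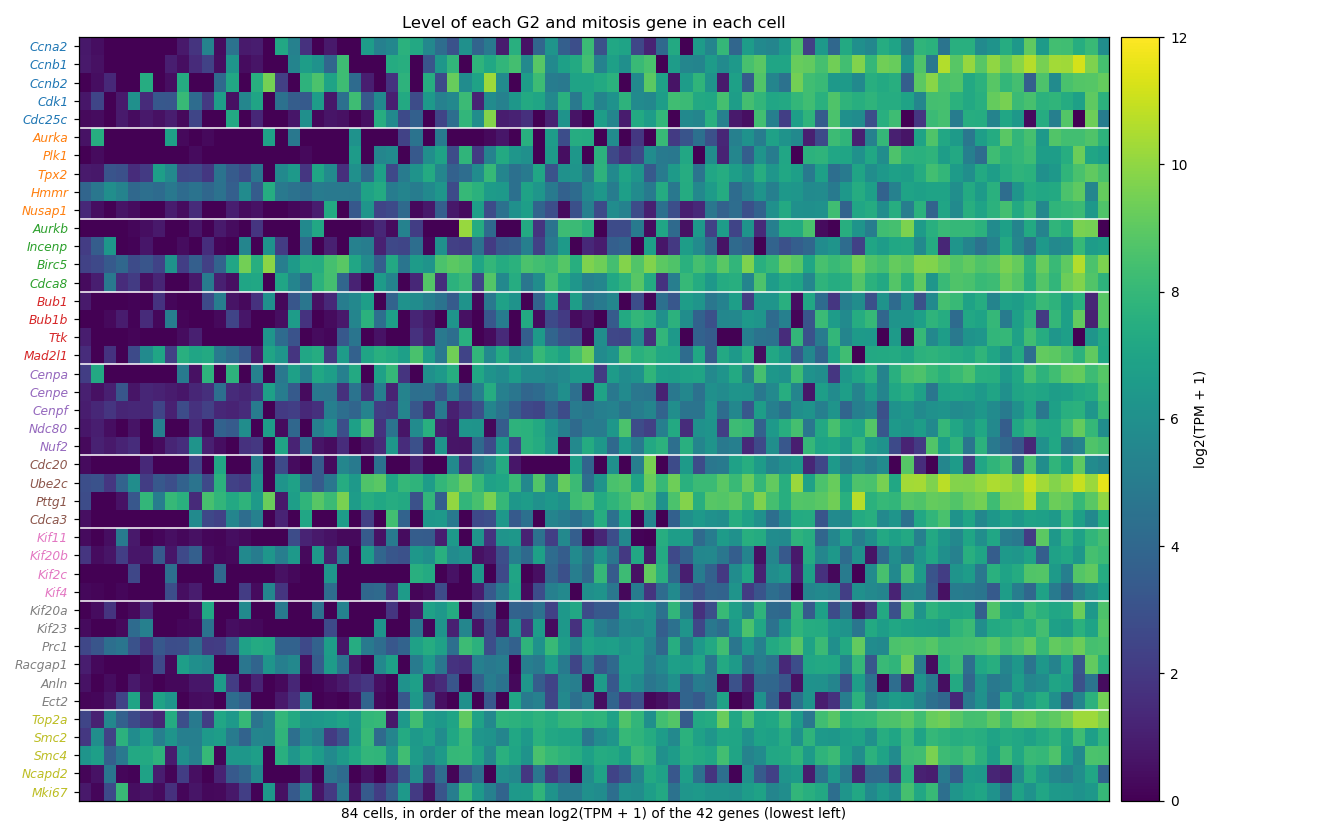
Log2(TPM + 1) of the 42 genes (rows, grouped and coloured by role) in 84 cells (columns, ordered by the mean over the 42 genes, lowest left). Cells change gradually from left to right, while the rows of Hmmr, Smc2 and Smc4 stay filled on the left side. The leftmost cell held 2 genes at TPM 10 or more and the rightmost 40, and the cells with all 42 lie further left than the rightmost.

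In the 9 cells with the fewest members, 3 genes still reached TPM 10 in most cells. Hmmr reached TPM 10 in 9 of the 9, Smc4 in 8 and Smc2 in 7, with medians of 19.9, 74.1 and 55.75 TPM. Next came Pttg1 with 4 cells and Ube2c, Top2a, Mad2l1 and Ect2 with 3 each. At TPM 1 more remained, with Hmmr, Birc5, Ube2c, Prc1, Top2a and Smc2 detected in all 9 of these cells, Cenpf and Smc4 in 8 and Tpx2 and Mad2l1 in 7. The 9 cells were picked by these genes, so this is a description only. They held a median of 6351 detected genes, against 7058 in the other 75 cells. Their pan-endothelial genes at TPM 10 ranged from 4 to 17 of 17, and 4 of the 9 held at least 3 mesenchyme genes. S phase genes at TPM 10 numbered a median of 20 of 36 in the 9 cells and 27 in the others, but ran from 9 to 31 among the 9, so some cells poor in mitotic transcripts held many replication transcripts.

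Members varied together. Over the 861 member pairs Pearson's r of log2(TPM + 1) across the 84 cells had a median of 0.426, with quartiles of 0.339 and 0.505, and all 861 values were above 0. Over all pairs of the 12318 genes detected in 5 or more cells the median was 0.020, and over pairs of genes detected in 42 or more cells 0.033. An r of 0.3 or more was reached by 718 member pairs (83.4%), against 1.04% of all pairs and 1.58% of pairs of genes detected in 42 or more cells. The cells count as 1 sample and their depth is unknown and may differ, and r of the member mean with the number of detected genes was 0.323. The median pair r was 0.418 without the 4 cells with few endothelial genes and 0.395 in the 46 cells that hold fewer than 3 markers of every other cell type. Within the 7 sets of 12 cells that share a second library index, the median pair r ran from 0.338 to 0.566.

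The 3 highest pairs were Nusap1 with Cenpf (r = 0.763), Cenpf with Ube2c (0.726) and Ccnb1 with Cdca3 (0.720). The 3 lowest were Mad2l1 with Ect2 (0.088), Hmmr with Smc4 (0.114) and Cdc20 with Kif20b (0.117). By the median of its r to the other 41 members, Ube2c came first (0.555), followed by Cenpf (0.546), Nusap1 (0.526), Cenpe (0.523) and Ccnb1 (0.522). Ncapd2 (0.283), Mad2l1 (0.285), Smc4 (0.303) and Ect2 (0.315) were the least tied to the rest.

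**Figure D4:**
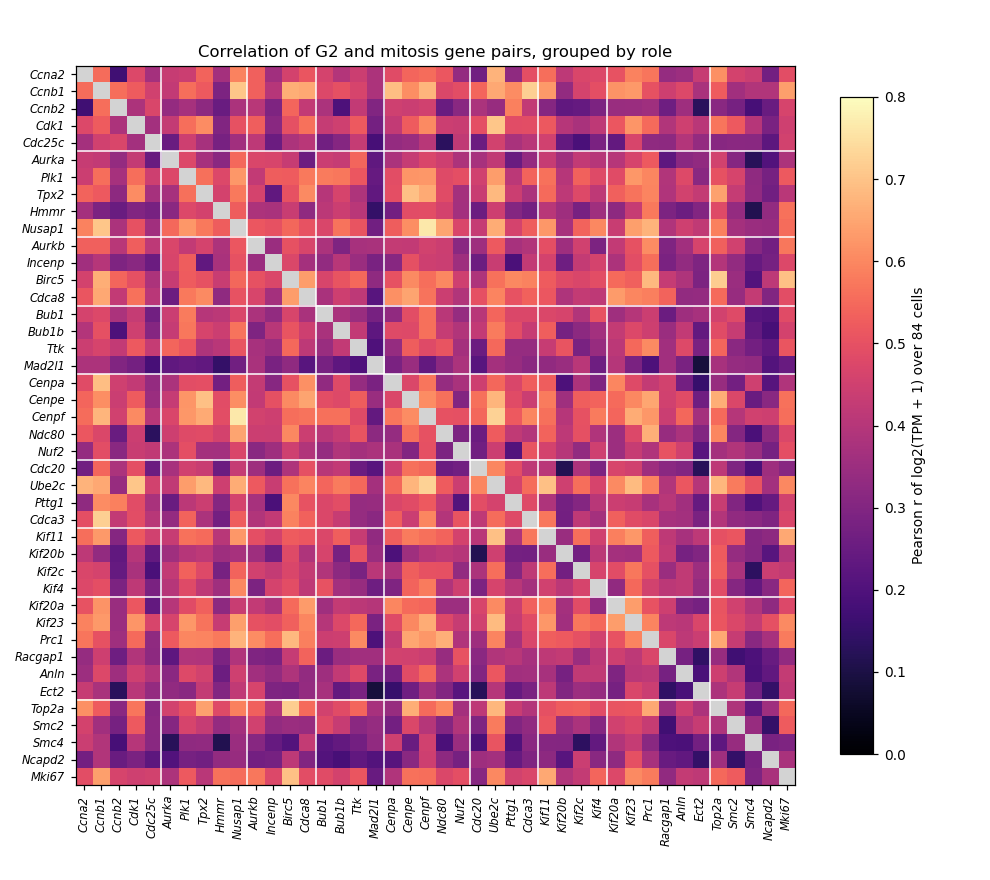
Pearson's r of log2(TPM + 1) over 84 cells for each pair of the 42 genes (both axes, in the same order, white lines between roles; the diagonal is grey). Values run from 0.088 to 0.763, with bright rows for Ube2c, Cenpf and Nusap1, dark rows for Mad2l1, Smc4 and Ncapd2, and no brighter blocks along the diagonal.

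The partner pairs named here did not stand out from other member pairs by their median r. The median r was 0.447 for the 79 pairs of the same role and 0.426 for the 782 pairs of different roles. For 17 pairs of partners, named from textbook knowledge as working together or sharing a complex, the median was 0.369. Of them 5 lay above the median of all member pairs. The 17 do not hold every such pair. Left out in the passenger complex were Incenp with Birc5 (0.474), Aurkb with Cdca8 (0.468) and Incenp with Cdca8 (0.368). The median therefore depends on the choice of pairs. Ndc80 and Nuf2, an obligate pair, had r = 0.288 and were both at TPM 10 in 36 cells, out of 59 for Ndc80 and 45 for Nuf2. Smc2 and Smc4 had r = 0.343, and Racgap1 and Ect2 0.142. Of the 17, Birc5 with Cdca8 had the highest r (0.636), followed by Cdk1 with Ccnb1 (0.523) and Aurkb with Birc5 (0.502). Cyclin B1 had r = 0.557 with cyclin B2 and 0.555 with cyclin A2, but cyclins A2 and B2 had only 0.169 with each other.

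To set late against early mitotic genes, 10 genes whose products peak at mitosis (Ccnb1, Ccnb2, Plk1, Cdc20, Aurka, Cenpa, Cenpe, Cenpf, Kif20a and Hmmr) were compared with an early list of 10 (Ccna2, Cdk1, Top2a, Mki67, Smc2, Smc4, Ncapd2, Mad2l1, Kif11 and Ndc80). The early list was meant for genes of S phase, G2 and condensation. Its members Mad2l1, Kif11 and Ndc80, however, act at the spindle or kinetochore in mitosis itself, so the split is a rough one. The late genes had the higher median pair r among themselves, 0.475, against 0.382 among early genes and 0.406 between the lists. Within single index sets the median ran from 0.339 to 0.652 for late pairs and from 0.321 to 0.535 for early pairs, so these ranges overlapped. The late mean and the early mean had r = 0.813 over the cells. A median of 7 late and 8 early genes reached TPM 10 per cell. All 10 late genes were found at that level in 19 cells and all 10 early genes in 22. Mean log2(TPM + 1) ranged from 0.63 to 8.90 for late genes, with a median of 4.80, and from 1.57 to 8.12 for early genes, with a median of 5.62.

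At TPM 10 the lists parted mostly in 1 direction. In 13 cells (15.5%, 8.51% to 25.01%) at least 5 early but fewer than 5 late genes passed, and in 1 cell the reverse was seen. The late mean lay 2 or more log2 units below the early mean in 13 cells and that far above it in 0 of 84, which allows a share of up to 4.30%. The late minus early difference had a median of -0.69 over the cells, so counting 2 units to either side of 0 favoured the low side. The lists also differed in level, as the median TPM of a gene had a median of 33.7 over the late list and 85.0 over the early list. When each gene was counted at or above its own median over the cells in place of TPM 10, a choice made after the data were seen, 12 cells had 5 or more early with fewer than 5 late genes and 9 cells the reverse. Cells with early genes and few late ones were thus found under both limits, while the count of the reverse differed between them.

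**Figure D5:**
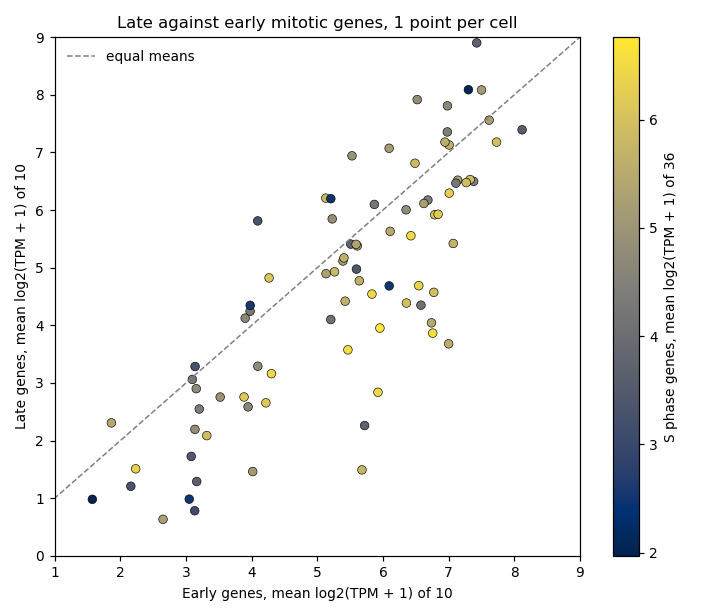
Mean log2(TPM + 1) of the 10 late genes (vertical axis) against that of the 10 early genes (horizontal axis), 1 point per cell, coloured by the mean of 36 S phase genes; the dashed line marks equal means. The means have r = 0.813, 22 of the 84 cells lie above the line, and the cells farthest below it fall short by up to 4.19 log2 units.

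Individual cells show the 2 ends. Cell 45 held 6 early but 2 late genes at TPM 10, with a late minus early difference of -4.19 log2 units and 28 of 36 S phase genes at TPM 10. Cell 21 had 3 late genes and 8 early ones, with a difference of -3.46. At the other end, cell 44 held 9 late and 7 early genes with a difference of 1.72, and cell 65 all 10 of both lists with a difference of 1.47 and the highest late mean of the series, 8.90. Cell 65 is 1 of the 4 cells with few endothelial genes, with 0 of 17 at TPM 10 and 4 mesenchyme genes.

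The r of S phase genes with the members depended on which cells were used. The mean of 36 replication genes had r = 0.180 with the member mean, 0.084 with the late mean and 0.277 with the early mean over the 84 cells. Within the 7 index sets r with the member mean ran from -0.228 to 0.679. It was 0.220 without the 4 cells with few endothelial genes, and without the 38 cells that hold 3 markers of another cell type it was 0.441, with 0.358 for the late and 0.532 for the early mean. The largest r of a single S phase gene with the member mean was 0.388, for the replication helicase factor Cdc45, and 12 of the 36 were below 0. Of the 36, 1 reached r = 0.3, against 3.07% of genes that are not members.

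Genes of mitosis outside the member list varied with them. Of 50 such genes 38 were detected in 42 or more cells, against 34.6% of all genes. An r of 0.3 or more with the member mean was found for 43, against 3.07% of genes that are not members. Their median r was 0.511, where the median over all genes that are not members was 0.048. Hmgb2, a chromatin protein (84 cells), Spc24, a partner of Ndc80, and Cks1b, a Cdk subunit (83 cells each), were detected in the most cells, as was Dlgap5 in 83. The kinase Nek2 (17 cells), the phosphatase Cdc25b (20) and the motor Kifc1 (21) were found in the fewest. Among the 10 genes outside the list with the highest r were Hmgb2 (0.758), Cdca2 (0.714), Ckap2l (0.704), the nuclear import factor Kpna2 (0.701), Fam64a (0.659), the spindle protein Tacc3 (0.654), the kinase Pbk (0.640), Spc25 (0.639) and the kinetochore gene Ska3 (0.637). At the other end stood Myh9, the heavy chain of non-muscle myosin IIA (-0.424), the lysosomal gene Dram2 (-0.423), the actin-severing cofilin Cfl1 (-0.420), the junctional protein gene F11r (-0.412) and B4galt1 (-0.395).

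Of the 12 genes whose products regulate the transcription of mitotic genes, Foxm1 was the one closest to the members. It had r = 0.631, detection in 57 cells and a median of 5.67 TPM. Nfya followed at 0.320, and the other 10 lay below 0.3, with Mybl2 (B-Myb) at 0.144. Of genes that are not members 3.07% reached 0.3. Rbbp4, Nfyb and Tfdp1 were detected in the most cells (83, 75 and 74) and Lin54, Mybl2 and Lin52 in the fewest (25, 39 and 41). Of 10 genes of G1 and cell cycle exit, Cdkn1c, the inhibitor p57 (84 cells), and the cyclins Ccnd2 (83) and Ccnd1 (77) were found most often, and Cdkn2c (4), Rbl2 (16) and Cdkn1a, the inhibitor p21 (17), least often. Rbl1 (0.310) and Rbl2 (0.301), relatives of the retinoblastoma gene, were the 2 with r of 0.3 or more, beside the same 3.07%. Cdkn1c ranged from 1.23 over 297 to 6596 TPM and had the lowest r of the 10 with the member mean, -0.203. In the 3 cells with all 42 members it was at 428, 212 and 7.11 TPM, so high mitotic transcripts and Cdkn1c occurred together in some cells. Cells 16 and 26, with 428 and 212 TPM, each held 6 mesenchyme genes at TPM 10, beside 16 and 14 pan-endothelial genes. Cell 79, with 7.11 TPM, held 0 mesenchyme genes. Whether cells with markers of both types are single cells was not tested.

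Members were also compared between the 33 cells with 3 or more mesenchyme genes at TPM 10 and the other 51 cells. The mesenchyme-marked cells had the higher average over all cells, with a median difference of 0.57 log2 units over the 42 members, against -0.07 over 12318 genes. The mean was higher for 35 members and lower for 7, while it was higher for 43.8% of all genes. Kif2c alone was higher by 1 log2 unit or more, with a mean of 4.12 in the marked cells and 3.11 in the others, while 3.87% of all genes were. None was lower by that much (0 of 42), against 6.91% of all genes. The number of members at TPM 10 overlapped nearly completely, from 6 to 42 with a median of 32 in the marked cells and from 2 to 42 with a median of 31 in the others. The difference did not hold within index sets, where it was above 0 in 4 of 7 and ran from -1.41 to 3.35, with an SD of 1.56 over the sets and 1 marked cell in the set with 3.35. Of the 4 cells with few endothelial genes 3 were among the marked cells. Without the 4 the median difference was 0.35, against -0.05 over all genes, with 32 members higher and 0 by 1 log2 unit. In the 11 cells with 3 mesenchyme genes at TPM 100, the median difference was -0.02, against -0.26 over all genes, with 20 members higher. The share of all genes that were higher was not taken for these settings. Detected genes had a median of 6843 in the marked cells and 7040 in the others. The summed TPM of the 11 mesenchyme genes ran from 0.04 to 2845 over all cells, and r of their mean with the member mean was 0.179. The part of these in the result was not tested.

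Across the 7 index sets of 12 cells, the median number of members at TPM 10 lay between 24 and 35.5, and 7 to 11 cells of each set held 21 or more. The set with 24 had a median of 6969 detected genes and that with 35.5 had 7244. Cells with 10 or fewer members came from 6 of the 7 sets, and no set held more than 3 of them.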

How the data were processed

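Single cells were sorted, captured and made into full-length cDNA libraries with 24 libraries to a lane and reads of 67 bp, per the labels' protocols. The authors deposited 1 table of TPM for 84 cells. Tools named in the submitters' processing notes are Bowtie 0.12.9, RSEM 1.2.3 and CASAVA 1.8.2, with mm10 as the build. The annotation is not given in the sources used here. Because TPM keeps no depth, no count model was used.

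With Python 3.11.15, numpy 2.4.6, pandas 2.3.3 and scipy 1.17.1, values were taken as log2(TPM + 1), which shrinks differences between low values, and a gene was called detected at TPM 1. A total of 0 cells were left out, 0 pairs of cells were identical, and no doublet caller was run. Intervals are exact Clopper-Pearson at 95%. Correlations describe 84 cells and carry no p. The correlation code was tested on simulated data. The members, lists and roles were chosen with earlier results of these data known. Named genes are every member, the 3 highest and lowest pairs, the 10 closest (1 is not reported here) and 5 farthest genes outside the list, the 3 genes of each further list found in the most and in the fewest cells (with ties), and the promoters of 4 members. Cdc45, Foxm1, Nfya and Rbl1 were named after their values were seen, as were single cells. Coordinates are those of RefSeq on GRCm38.p6, the assembly behind mm10, in which all 42 members were matched.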

Additional observations from a re-analysis of the deposited data

How the results depend on the processing

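Of 186 alternative values, 171 lay within the SD of the same value over the 7 index sets, within 1.5 times a count or within the exact interval of a share. Of the 186, 84 came from leaving out 1 index set, and 83 of these lay within the limit. Such values share most cells with the main value and are judged by the spread of the same sets, so their agreement says little. The SD is a wide limit for the S phase r (0.350, around 0.180), the r with detected genes (0.289, around 0.323) and the mesenchyme difference (1.56, around 0.57). For these it says nothing about stability. No paired analysis was possible because the cells form 1 group. At TPM 1 the median number of members per cell was 36.5 and that of late members 9. At TPM 100 these were 12.5 and 2, and 12 members passed in 42 or more cells. The share of all genes that passed at TPM 100 was not taken, so the 12 cannot be set against it. The median pair r lay between 0.412 and 0.448 when each index set was left out, and r of the late with the early mean between 0.798 and 0.833. The r of the late mean with S phase genes, 0.084 in all cells, was 0.358 without cells holding 3 markers of another type. It turned to -0.049 with the number of detected genes regressed out and ranged from -0.037 to 0.131 without 1 index set, the lowest without set 1. For the mesenchyme-marked cells, the number of members 1 log2 unit higher was 0 with a pseudocount of 10 and 3 with 0.1. It was 2 after median-of-ratios scaling and 0 without the 4 cells with few endothelial genes. With markers at TPM 100 it was 6, where the median difference was -0.016, against -0.258 over all genes. The share of all genes that were 1 log2 unit higher was taken for the main setting alone (3.87%), so these counts have no such share beside them. TTTGAA lay in 18.9% of member promoters when the 100 bases before the start alone were searched, against 33.3% for other mitosis genes, 3.21% for genes detected in 42 or more cells and 5.77% for all promoters, so the order of members and other mitosis genes is turned round there. Cells with 5 late and fewer than 5 early genes numbered 9 with each gene at its own median, added after the data were seen. Depth is unknown, so the share of zeros due to capture was not tested.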
